A study of Saccharomyces cerevisiae with 10 samples.

Results

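The phosphate genes of *S. cerevisiae* were followed in 3′ tag RNA-Seq libraries from 5 strains that differ in RNA pol II assembly and in the nuclear exosome. The set has 9 genes, given by their systematic names: *PHO84* (YML123C), *PHO89* (YBR296C), *PHO5* (YBR093C), *PHO11* (YAR071W), *PHO12* (YHR215W), *PHO8* (YDR481C), *VTC3* (YPL019C), *SPL2* (YHR136C) and *PHM6* (YDR281C). Each was looked up as a whole name among the 10431 features counted, of which 5376 are ORFs. This gave a row for 7 of the 9 genes, each holding that gene alone, and *PHO11* and *PHO12* were not analysed here.

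Each strain was represented by 2 biological replicates, grown in rich medium (YPD) at 30 °C to an OD600 of about 0.8. The study asked how a mutation in the foot domain of the largest RNA pol II subunit, *rpb1-84*, alters the levels of non-coding RNAs, and whether the nuclear exosome takes part. The *rrp6* experiment has 3 of the strains: a double mutant (*rpb1-84 rrp6∆*), *rrp6∆* alone and the isogenic WT. Rrp6 is the 3′ to 5′ exonuclease of the nuclear exosome, and the *rrp6∆* strains carry the KanMX4 marker at that gene. These 3 strains and the *rpb1-84* strain are MATα and share the *his3-∆200*, *leu2-3*,*112*, *trp1-∆63* and *ura3-52* alleles. They also share a deletion of chromosomal *RPB1* (*rpb1-∆187::HIS3*), so that the largest subunit came from a multicopy 2µm plasmid with *LEU2*. The plasmid carried *rpb1-84* in the double mutant and in the *rpb1-84* strain, and *RPB1* in *rrp6∆* and WT. The *rpb1-84* strain had in addition a TAP tag on *RPB4* with *TRP1*, and the study set it against WT libraries that are not used here. Tag and experiment therefore cannot be told apart from *rpb1-84* wherever that strain is compared below. The *rpb4∆* strain lacks the Rpb4 stalk subunit (*rpb4∆::kanMX4*) and is labelled MATa with *his3-∆1*, *leu2-∆0*, *met15-∆0* and *ura3-∆0*. It is of another background and its WT is not used here, so only its levels are given. A lower level in such bulk cultures cannot separate fewer expressing cells from less RNA per cell.

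Libraries held between 1415496 and 7268211 counts. Features of the CUT class, cryptic transcripts that the exosome normally removes, took 2.63% and 2.57% of the counts in the double mutant and 3.56% and 3.33% in *rrp6∆*, against 0.510% and 0.495% in WT. The *RRP6* row itself was not empty in the strains labelled *rrp6∆*, as the double mutant had 290 and 176 counts and *rrp6∆* 572 and 548, against 231 and 171 in WT. Since the position of a tag within a feature is not known, this row does not check the deletion. *RPB4* had 7 and 4 counts in *rpb4∆* and 33 and 59 in *rpb1-84*, against 606 and 508 in WT. The double mutant, which carries *rpb1-84* without the tag, had 1140 and 866. Whether the row measures the *RPB4* level in the tagged *rpb1-84* strain was not tested. Markers of mating type went against the MATa label of *rpb4∆*: the 4 MATa genes *MFA1*, *MFA2*, *STE2* and *BAR1* summed to 7 and 4 counts there, while *STE3*, the MATα receptor, had 142 and 106 counts (91.4 and 93.2 CPM). The part of mating type in the *rpb4∆* levels below was not tested. Both pheromone genes of either type, *MFA1* and *MFA2* or *MF(ALPHA)1* and *MF(ALPHA)2*, had 20 counts or fewer in every library, so a low count of a feature is not by itself evidence that its gene was silent.

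Yeast senses phosphate through the PHO pathway. In rich medium the cyclin-kinase pair Pho80-Pho85 phosphorylates the activator Pho4 and keeps it out of the nucleus. When phosphate runs short the inhibitor Pho81 blocks the kinase. Pho4 then enters the nucleus and, together with Pho2, activates its target genes. The targets take up phosphate (Pho84, Pho89), release it from organic compounds outside the cell (Pho5, Pho11, Pho12) or in the vacuole (Pho8), store it as polyphosphate (Vtc3) or retune transport (Spl2). *PHO84* is also a textbook case of antisense control: RefSeq annotates an antisense RNA (YNCM0001W) over it and describes it as repressing *PHO84* through histone deacetylation, and this RNA accumulates in cells without Rrp6.

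The genes lie on R64 chromosomes XIII (*PHO84*, 24037 to 25800), II (*PHO89*, 796798 to 798522, and *PHO5*, 429548 to 430951), IV (*PHO8*, 1418550 to 1420250, and *PHM6*, 1022007 to 1022321), XVI (*VTC3*, 514511 to 517018) and VIII (*SPL2*, 374654 to 375100), all on the minus strand. *PHO11* (chromosome I, 225460 to 226863) and *PHO12* (chromosome VIII, 552099 to 553502) are on the plus strand. These spans are the coding genes as RefSeq gives them. Several are close to a chromosome end: *PHO11* at 3.36 kb, *PHO12* at 9.14 kb, *PHO89* at 14.7 kb and *PHO84* at 24.0 kb. The antisense RNA YNCM0001W runs from 23564 to 26578 on the plus strand of chromosome XIII and covers *PHO84* and its upstream region. It was the only annotated gene overlapping any of the 9, and it was not analysed here. The strand setting of the counting is not given in the sources used here, so reads from *PHO84* and from its antisense partner cannot be told apart.

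The sequence feature these genes share is the Pho4 core. This motif, CACGTG, which reads the same on both strands, was searched in the 600 bases upstream of each start codon. It was present in 9 of the 9 genes, against 434 of 6002 protein-coding genes (7.23%). At least 2 copies were found in 52 genes (0.866%), among them *PHO84*, *VTC3* and *SPL2*. *SPL2* had 4 copies, starting at -361, -147, -90 and -31 from the start codon, and was 1 of only 2 genes in the genome with 4 or more. A variant with 1 changed base, CACGTT searched on both strands (AACGTG on the other), was found in 8 of the 9 genes, all but *SPL2*, against 1127 of 6002 genes (18.8%). These matches describe the letters in that window and say nothing about binding. The windows around the matches in the 5 genes that could be tested are shown 5′ to 3′ on the coding strand, from RefSeq R64, with the core or its variant in capitals.
*SPL2*, chrVIII:375176-375265, minus strand: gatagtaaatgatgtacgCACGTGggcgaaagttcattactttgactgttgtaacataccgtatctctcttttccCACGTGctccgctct
*PHO84*, chrXIII:26196-26250, minus strand: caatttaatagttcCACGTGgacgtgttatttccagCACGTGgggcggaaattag
*VTC3*, chrXVI:517309-517378, minus strand: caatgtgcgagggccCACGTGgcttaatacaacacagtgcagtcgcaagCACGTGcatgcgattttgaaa
*PHO5*, chrII:431189-431328, minus strand: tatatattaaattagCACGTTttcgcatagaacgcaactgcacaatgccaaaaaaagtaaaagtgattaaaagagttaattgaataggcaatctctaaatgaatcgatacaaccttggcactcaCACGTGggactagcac
*PHO8*, chrIV:1420761-1420800, minus strand: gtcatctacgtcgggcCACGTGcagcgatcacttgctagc

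**Figure D1:**
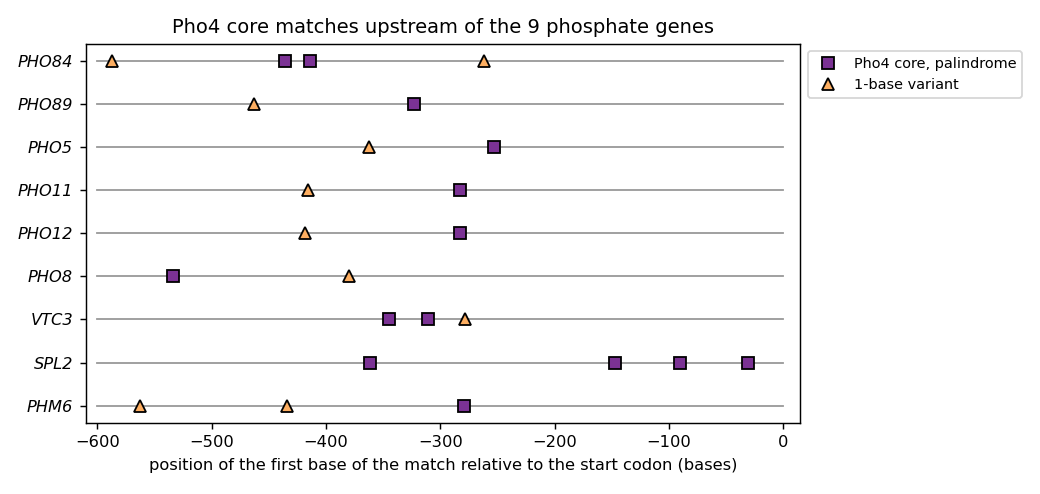
Positions of the Pho4 core (squares) and of its variant with 1 changed base (triangles) in the 600 bases upstream of the start codon of the 9 phosphate genes, with the first base of each match counted back from the start codon. *SPL2* holds 4 core matches and no variant, *PHO84* and *VTC3* hold 2 core matches each, and the other 6 genes hold 1.

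Levels are given as CPM, the counts scaled to library size with TMM factors over all 10 libraries, and a change as a log2 fold change from edgeR's quasi-likelihood fit with its SE. A feature was called when its absolute log2 fold change was above 1 and its Benjamini-Hochberg adjusted p over all features was below 0.1. Of the 7 genes with a row, 5 passed the filter on low counts and were tested (*PHO84*, *PHO5*, *PHO8*, *VTC3* and *SPL2*). *PHO89* and *PHM6* did not pass it and are described by their counts. *SPL2*, with 3 and 0 counts in WT and 2 and 0 in *rpb1-84*, passed only through the strains lacking *RRP6*, where it was high. Its place among the 5 and its calls as higher are therefore tied together. The samples within a strain are separate cultures, and the 3 comparisons within the *rrp6* experiment share libraries with one another.

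In *rrp6∆* against WT, *SPL2* was higher and *VTC3* was lower, and *PHO84*, *PHO5* and *PHO8* were not called. That is 1 of 5 genes higher, where 32.2% of all features tested were called higher, and 1 of 5 lower, where 6.75% were called lower. Among ORFs alone the shares were 4.17% higher and 11.5% lower, since many of the features that rose were non-coding. The 5 genes had a median log2 fold change of -0.93, beside -0.01 over all features and -0.48 over ORFs. In the double mutant against WT the same 2 genes were called, *SPL2* higher and *VTC3* lower. There 28% of features (4.25% of ORFs) were called higher and 6.4% (9.21% of ORFs) lower. The median was -0.36 for the 5 genes, 0.03 for all features and -0.34 for ORFs. In the double mutant against *rrp6∆*, *PHO84* was the 1 gene called higher, where 1.96% of features (2.11% of ORFs) were called higher. None of the 5 was called lower, where 6.49% of features (1.95% of ORFs) were. Of these 5, 0 were lower at an unadjusted edgeR p below 0.05 and DESeq2 called 0 lower as well. DESeq2 gave *PHO84* no adjusted p in this comparison (log2 fold change 1.42).

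**Figure D2:**
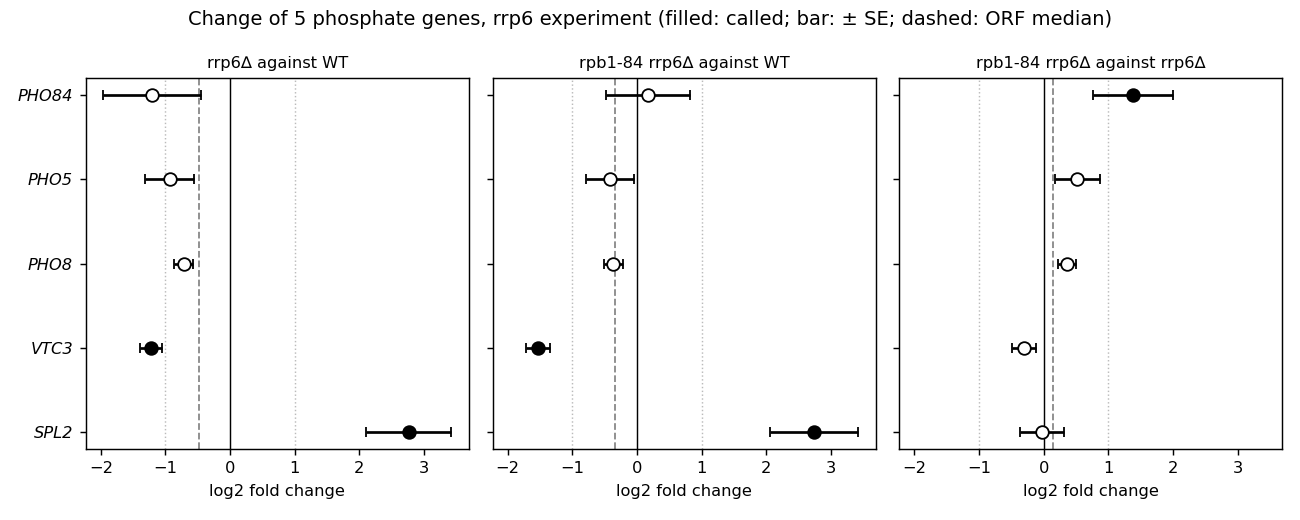
Log2 fold changes of the 5 phosphate genes tested, in *rrp6∆* against WT (left), the *rpb1-84 rrp6∆* double mutant against WT (middle) and the double mutant against *rrp6∆* (right), from the edgeR fit of 6 libraries. Filled points were called, bars are ± SE, dotted lines mark a log2 fold change of 1 in either direction and the dashed line is the ORF median (-0.48, -0.34 and 0.14). *SPL2* stands far right of the others in both comparisons with WT, and *VTC3* stands furthest left of the 5 in the double mutant against WT.

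*PHO84* encodes the high-affinity proton-coupled phosphate transporter of the plasma membrane. It was read at 1 to 56 counts. It had 9 and 10 counts (1.47 and 2.08 CPM) in the double mutant, 6 and 3 (0.845 and 0.433 CPM) in *rrp6∆*, 22 and 56 (6.70 and 8.35 CPM) in *rpb1-84*, 5 and 4 (3.22 and 3.52 CPM) in *rpb4∆* and 8 and 1 (2.60 and 0.381 CPM) in WT. The libraries of *rpb1-84* were the highest, followed without overlap by those of *rpb4∆*, while the double mutant, WT and *rrp6∆* overlapped with their neighbours in this order. The WT libraries themselves lay furthest apart.

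In *rrp6∆* against WT, *PHO84* had a log2 fold change of -1.21 ± 0.76 (edgeR adjusted p = 0.149). The direction rests on the first WT library: without it the value was 0.78, and without the second WT library, which held 1 count, it was -1.94 and was called. Summed over replicates, 9 counts in *rrp6∆* against 9 in WT gave a ratio of 0.406 after scaling, with a 95% interval of 0.143 to 1.15 that covers counting error only. A fall of *PHO84* in the absence of Rrp6 was thus not detectable at this depth. In the double mutant against WT the log2 fold change was 0.17 ± 0.64 (edgeR adjusted p = 0.831), and it ranged from -0.55 to 2.17 when each library was left out.

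In the double mutant against *rrp6∆*, *PHO84* was higher by 1.38 ± 0.62 on the log2 scale (edgeR adjusted p = 0.0697), with both double mutant libraries above both *rrp6∆* libraries. The ratio of summed counts was 2.72 (95% counting interval 1.17 to 6.82). This call was lost when any 1 of the 4 libraries compared was left out, with values of 1.00 to 1.91 and adjusted p up to 0.323. It was also lost with scaling from ORFs only (1.24, edgeR adjusted p = 0.105).

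**Figure D3:**
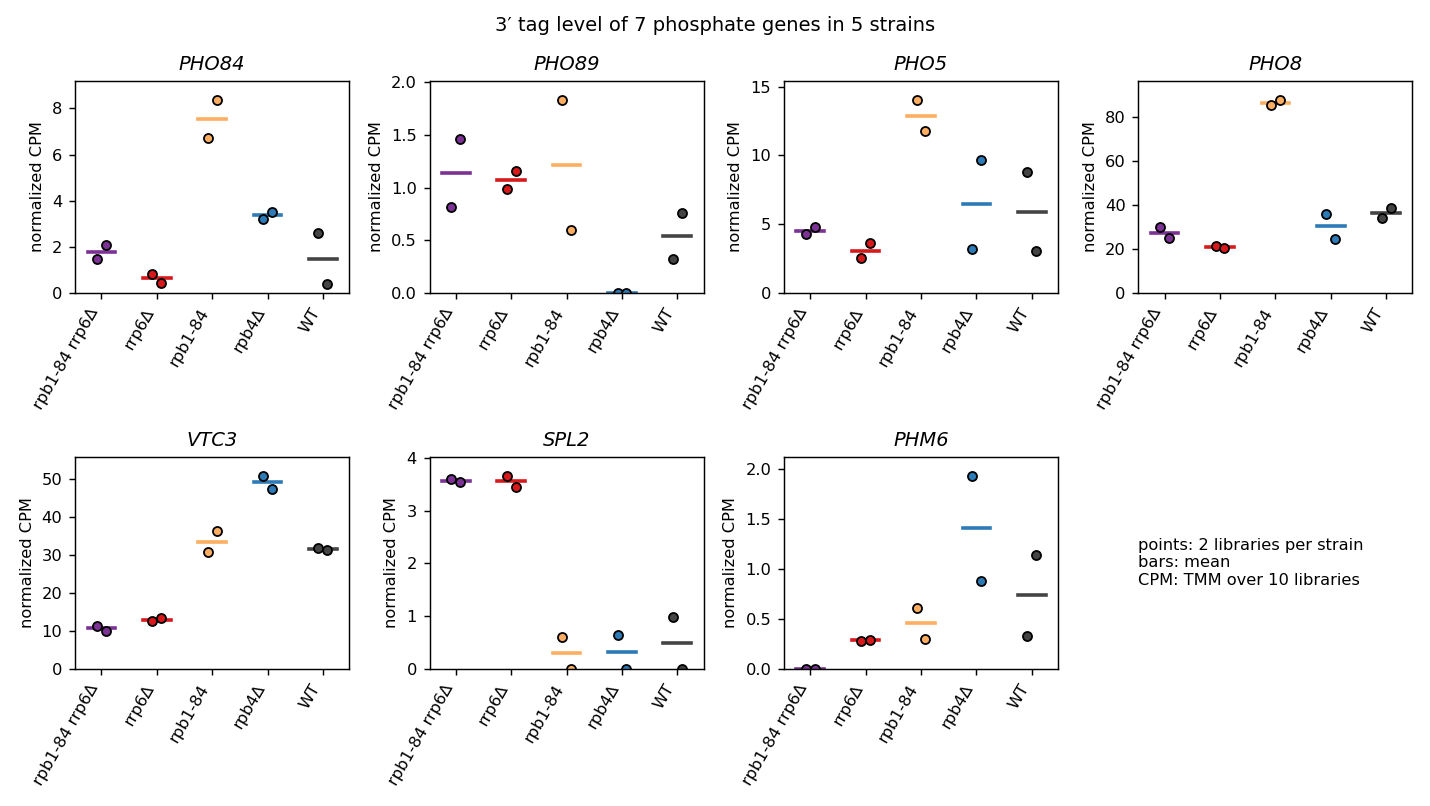
Level of 7 phosphate genes in the 10 libraries, in CPM (TMM over all libraries), each gene on its own axis starting at 0. Points are the 2 libraries of a strain and bars their mean, from left to right *rpb1-84 rrp6∆*, *rrp6∆*, *rpb1-84*, *rpb4∆* and WT. *SPL2* is high in both strains lacking *RRP6*, *PHO84*, *PHO5* and *PHO8* are highest in *rpb1-84*, and *VTC3* is lowest in both strains lacking *RRP6*.

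*PHO89*, the sodium-coupled phosphate transporter that works at alkaline pH, had 5 and 7 counts in the double mutant, 7 and 8 in *rrp6∆*, 6 and 4 in *rpb1-84*, 0 and 0 in *rpb4∆* and 1 and 2 in WT. The level was 0.819 and 1.46 CPM in the double mutant and 0.986 and 1.15 CPM in *rrp6∆*, against 0.325 and 0.762 CPM in WT, without overlap. The ratio of summed counts to the 3 counts of WT was 2.03 in *rrp6∆* (95% counting interval 0.574 to 10.9) and 2.09 in the double mutant (0.564 to 11.5). Both intervals include 1, and a difference was not detectable at this depth. In *rpb4∆*, 0 counts in the pair of libraries allow a level of up to 1.12 CPM, taken as 3 counts over both libraries.

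*PHO5* is the classical repressible acid phosphatase secreted into the periplasm. It had 26 and 23 counts (4.26 and 4.79 CPM) in the double mutant, 18 and 25 (2.54 and 3.61 CPM) in *rrp6∆*, 46 and 79 (14.0 and 11.8 CPM) in *rpb1-84*, 5 and 11 (3.22 and 9.68 CPM) in *rpb4∆* and 27 and 8 (8.78 and 3.05 CPM) in WT. As for *PHO84*, both *rpb1-84* libraries stood above every other library, and the WT libraries lay on either side of both double mutant libraries. The log2 fold change was -0.93 ± 0.38 in *rrp6∆* against WT (edgeR adjusted p = 0.0286), under the minimum fold for a call. It was 0.07 without the first WT library and -1.47 without the second. The double mutant gave -0.41 ± 0.37 against WT (edgeR adjusted p = 0.330) and 0.52 ± 0.35 against *rrp6∆* (edgeR adjusted p = 0.237).

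Reads of *PHO5* can be shared with a near copy. Its neighbour *PHO3*, a constitutive acid phosphatase, is 86.5% identical over the 1404 bases of the coding sequence and 92.7% identical in the last 300 bases, where 3′ tags fall closest. *PHO3* had 89.1 and 76.2 CPM in the double mutant, 74.1 and 74.7 CPM in *rrp6∆*, 327 and 323 CPM in *rpb1-84* and 167 and 177 CPM in *rpb4∆*, against 79.7 and 92.9 CPM in WT, on the same CPM scale. It was called higher in *rpb1-84* against WT, the comparison in which *PHO5* was also called higher, and its part in the *PHO5* value was not tested. How reads with more than 1 match were counted is not given in the sources used here. *PHO11* and *PHO12*, the subtelomeric copies, differ from each other at 4 bases of 1404 (99.7% identity).

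*PHO8* encodes the alkaline phosphatase of the vacuole. It had 183 and 119 counts (30.0 and 24.8 CPM) in the double mutant, 153 and 143 (21.5 and 20.6 CPM) in *rrp6∆*, 280 and 587 (85.3 and 87.5 CPM) in *rpb1-84*, 56 and 28 (36.1 and 24.6 CPM) in *rpb4∆* and 105 and 101 (34.2 and 38.5 CPM) in WT. Both *rrp6∆* libraries lay below both of the double mutant, and these below both of WT. The log2 fold change was -0.72 ± 0.15 in *rrp6∆* against WT (edgeR adjusted p = 7.97e-05) and -0.36 ± 0.15 in the double mutant against WT (edgeR adjusted p = 0.0347). Neither passed the minimum fold, and relative to the ORF median they came to -0.23 and -0.02. Between the double mutant and *rrp6∆* the value was 0.35 ± 0.14 (edgeR adjusted p = 0.0400), again below the minimum fold, and 0.22 relative to the ORF median.

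*VTC3* encodes a subunit of the vacuolar transporter chaperone (VTC), the complex that makes polyphosphate from ATP and moves it into the vacuole. It had 69 and 48 counts (11.3 and 9.99 CPM) in the double mutant, 90 and 92 (12.7 and 13.3 CPM) in *rrp6∆*, 101 and 244 (30.8 and 36.4 CPM) in *rpb1-84*, 79 and 54 (50.9 and 47.5 CPM) in *rpb4∆* and 98 and 82 (31.9 and 31.2 CPM) in WT. The strains lacking *RRP6* had less than any other, and the double mutant lay below *rrp6∆*. *VTC3* fell by 1.22 on the log2 scale in *rrp6∆* against WT (SE 0.17, edgeR adjusted p = 7.28e-08) and fell by 1.53 in the double mutant against WT (SE 0.18, edgeR adjusted p = 4.07e-09). Relative to the ORF median the changes were -0.74 and -1.19. With scaling from ORFs only, the call in *rrp6∆* was lost (-0.74) and that in the double mutant was kept (-1.19). The difference between the double mutant and *rrp6∆*, -0.31 ± 0.18, was not called (edgeR adjusted p = 0.176).

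*SPL2* encodes a small protein that restrains low-affinity phosphate transport when phosphate is short. It had 22 and 17 counts (3.60 and 3.54 CPM) in the double mutant and 26 and 24 (3.66 and 3.46 CPM) in *rrp6∆*, whereas WT had 3 and 0 (0.976 and 0 CPM). Outside the strains lacking *RRP6* it was nearly uncounted, with 2 and 0 counts in *rpb1-84* and 1 and 0 in *rpb4∆*. All 4 libraries without *RRP6* thus lay above all 6 others. The ratio of summed counts to WT was 6.77 in *rrp6∆* (95% counting interval 2.19 to 33.9) and 6.79 in the double mutant (2.16 to 34.4). The fitted changes were 2.76 ± 0.66 (edgeR adjusted p = 0.000374) and 2.74 ± 0.68 (edgeR adjusted p = 0.000691), and because WT held 3 counts their size depends on the prior count: it ran from 1.89 to 7.32 and from 1.87 to 7.30 with each library left out, and the calls were kept throughout. The double mutant and *rrp6∆* differed by -0.03 ± 0.34 (edgeR adjusted p = 0.957), and the ratio of their counts was 1.00 with an interval of 0.643 to 1.56. Of the 9 genes, this is the one with 4 copies of the Pho4 core upstream, 2 of them in the window shown. A link between these copies and the level of *SPL2* was not tested.

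*PHM6*, a gene of unknown function named for its response to phosphate, had 0 and 0 counts in the double mutant, 2 and 2 in *rrp6∆*, 2 and 2 in *rpb1-84*, 3 and 1 in *rpb4∆* and 1 and 3 in WT. No count in the double mutant allows up to 0.275 CPM, while the means were 0.285 CPM in *rrp6∆* and 0.734 CPM in WT. Without the filter on low counts, the difference between the double mutant and WT was called lower by edgeR (adjusted p = 0.0354) and by DESeq2 (adjusted p = 0.0753). It rests on 4 counts in WT and no fold is given.

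Set against WT, the *rpb1-84* strain had more of 3 of the 5 genes tested, where 16.4% of features (18.7% of ORFs) were called higher. None of the 5 was called lower, where 15.7% of features (14.1% of ORFs) were. *PHO84* was higher by 2.36 ± 0.47 on the log2 scale (edgeR adjusted p = 5.5e-05), a ratio of summed counts of 4.94 (95% counting interval 2.48 to 11.2). The call was kept with each library left out, while the log2 value was 1.65 without the second WT library and 4.37 without the first. *PHO8* was higher by 1.34 ± 0.13 (edgeR adjusted p = 9.16e-11). *PHO5* was higher by 1.13 ± 0.31 (edgeR adjusted p = 0.00249), a call that was lost without the second WT library (0.60, adjusted p = 0.137; 2.15 without the first) and fell just under the minimum fold with scaling from ORFs only (0.97). *VTC3* (0.19 ± 0.16, edgeR adjusted p = 0.318) and *SPL2* (-1.21 ± 1.33, edgeR adjusted p = 0.463) were not called. At an unadjusted edgeR p below 0.05, 0 of the 5 were lower, DESeq2 called 0 lower, and the ORF median was 0.14. The higher levels in this strain move with the TAP tag on *RPB4*, whose row was low as given above, and with the experiment, which cannot be told apart.

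All 5 genes tested were called in the double mutant against *rpb1-84*, with *PHO84* (-2.19 ± 0.38), *VTC3* (-1.72 ± 0.17), *PHO8* (-1.70 ± 0.13) and *PHO5* (-1.54 ± 0.28) lower and *SPL2* higher. That makes 4 of 5 lower, where 18.7% of features were called lower (28.2% of ORFs), and 1 of 5 higher, where 32.1% were called higher (10.3% of ORFs). All 5 calls were kept with scaling from ORFs only and with each library left out, and the largest edgeR adjusted p among the 5 was 1.35e-05. For *SPL2*, 39 counts in the double mutant against 2 in *rpb1-84* gave a ratio of 17.9 with a 95% counting interval of 4.62 to 153. The fitted log2 value was 2.48 without the second *rpb1-84* library and 7.25 without the first. Again the RPB4 tag and the experiment differ along with *RRP6*.

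Whether the loss of Rrp6 acted differently in the *rpb1-84* and *RPB1* backgrounds was tested as an interaction in the fit of 8 libraries. None of the 5 genes was called, where 13% of features (14.1% of ORFs) were called higher and 16% (13.9% of ORFs) lower. Without the minimum fold, 50.8% of features had an adjusted p below 0.1, and 1 of the 5 genes did, the same 1 that had an unadjusted p below 0.05 with edgeR and with DESeq2. This was *PHO8*, which fell further with *rrp6∆* in the *rpb1-84* background, by an interaction of -0.98 ± 0.20 on the log2 scale (edgeR adjusted p = 9.51e-05). The interaction was -0.98 ± 0.87 for *PHO84*, -0.61 ± 0.48 for *PHO5*, -0.50 ± 0.25 for *VTC3* and 1.18 ± 1.37 for *SPL2*, and their edgeR adjusted p was above the threshold. The test carries the confounding of the *rpb1-84* strain.

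The other genes of the phosphate system were taken from a list of 29, of which 28 had a row and were tested, and *PHO92* was not analysed here. The list also holds *CTF19*, the gene next to *VTC3*, which is not a gene of the phosphate system. *CTF19* and *PHO3*, the gene next to *PHO5*, are counted again among the neighbours below. In *rrp6∆* against WT 4 were higher and 5 lower, where 32.2% and 6.75% of all features and 4.17% and 11.5% of ORFs were called, and their median log2 fold change was -0.34. With scaling from ORFs only, 4 were higher and 1 lower. Among the 5 regulators, *PHO4*, the activator itself, was higher. The double mutant had 6 and 9 counts of it and *rrp6∆* 10 and 14, whereas both WT libraries had 0. Taking 3 counts over both WT libraries as the limit, its observed level was 3.25-fold that limit in *rrp6∆* and 2.61-fold in the double mutant. These values leave out counting error in the mutant libraries and are not lower bounds. Its partner *PHO2* and the kinase subunits *PHO80* and *PHO85* and inhibitor *PHO81* were not called in either strain.

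Of 6 transport genes, 3 were lower in *rrp6∆*. They were the low-affinity transporters *PHO87* (-1.02 ± 0.13) and *PHO90* (-1.02 ± 0.11), which take up phosphate in rich medium and on which Spl2 acts, and *PHO88* (-1.18 ± 0.09), an endoplasmic reticulum protein. *GIT1*, a permease for glycerophosphoinositol, was higher (1.01 ± 0.34, edgeR adjusted p = 0.00804). With scaling from ORFs only, the lower calls of *PHO87*, *PHO90* and *PHO88* were all lost (-0.53, -0.53 and -0.69) and *GIT1* kept its call. None of the 6 was called in the double mutant against WT, and *GIT1* was lower there than in *rrp6∆* (-1.42 ± 0.30, edgeR adjusted p = 0.000228), on 18 and 16 counts, with 48 and 67 in *rrp6∆*.

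Among 8 polyphosphate genes, 2 more subunits of the VTC complex fell with *VTC3*. *VTC4*, the catalytic subunit, had 33.7 and 33.5 CPM in the double mutant and 25.1 and 29.9 CPM in *rrp6∆*, against 84.2 and 87.6 CPM in WT. *VTC2* had 102 and 86.2 CPM in the double mutant and 102 and 104 CPM in *rrp6∆*, against 231 and 217 CPM in WT. In both genes all 4 libraries without *RRP6* lay below both WT libraries. *VTC2* was as low in *rpb1-84*, which has *RRP6*, with 82.5 and 89.3 CPM, and was called lower there against WT (-1.29 ± 0.11). The log2 fold changes in *rrp6∆* were -1.58 ± 0.12 for *VTC4* and -1.06 ± 0.10 for *VTC2*, and in the double mutant -1.32 ± 0.12 and -1.22 ± 0.10. Only *VTC4* in *rrp6∆* kept its call with scaling from ORFs only (-1.10). *VTC1* (-0.98 ± 0.10) and *VTC5* (-0.32 ± 0.13) did not reach the minimum fold in *rrp6∆*. *PPN1*, a polyphosphatase, was higher in the double mutant than in *rrp6∆* (1.12 ± 0.09), a call lost with scaling from ORFs only (0.97).

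The 7 remaining tested genes outside these groups and the inositol pyrophosphate kinases held 2 that rose in *rrp6∆*, *PHM8* and *PHM7*. *PHM8*, a nucleotidase, had 71.1 and 74.7 CPM in the double mutant and 72.7 and 76.6 CPM in *rrp6∆*, against 27.0 and 30.1 CPM in WT, and rose by 1.38 ± 0.13 in the double mutant and 1.45 ± 0.13 in *rrp6∆*. It was also higher in *rpb1-84*, at 54.8 and 65.7 CPM (1.19 ± 0.15 against WT). *PHM7* rose by 1.39 ± 0.32 in *rrp6∆*, and in the double mutant its 0.74 ± 0.36 was not called. *HOR2*, a glycerol phosphatase, was lower in the double mutant than in *rrp6∆* (-1.21 ± 0.31). Neither kinase, *KCS1* nor *VIP1*, was called in the 3 comparisons of the *rrp6* experiment. In the double mutant relative to *rpb1-84*, 11 of the 28 listed genes were lower and 2 higher (4 and 4 with scaling from ORFs only). There 18.7% and 32.1% of all features and 28.2% and 10.3% of ORFs were called lower and higher. *KCS1* was among the lower ones (-1.37 ± 0.12), a call lost with scaling from ORFs only (-0.88). Over the whole list, the double mutant had 2 genes called higher and 2 called lower relative to WT (3 and 0 with scaling from ORFs only). The shares called were 28% and 6.4% of all features and 4.25% and 9.21% of ORFs. Relative to *rrp6∆* the double mutant had 1 called higher and 2 called lower (0 and 2 with scaling from ORFs only). Here the shares were 1.96% and 6.49% of all features and 2.11% and 1.95% of ORFs. In *rpb1-84* against WT, 7 of the 28 were higher and 2 lower (5 and 2 with scaling from ORFs only), where 16.4% and 15.7% of all features and 18.7% and 14.1% of ORFs were. Of the 5 regulators, *PHO85* (1.51 ± 0.13) and *PHO4* were among the higher and *PHO2* (-2.15 ± 0.47) among the lower. *PHO4* had 3 and 2 counts there against none in WT, and its call was lost with scaling from ORFs only. The calls of *PHO85* and *PHO2* were kept (1.36 and -2.30). *PHO80* and *PHO81* were not called. The Pho4 core was found upstream of 13 of the 29 (44.8%).

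**Figure D4:**
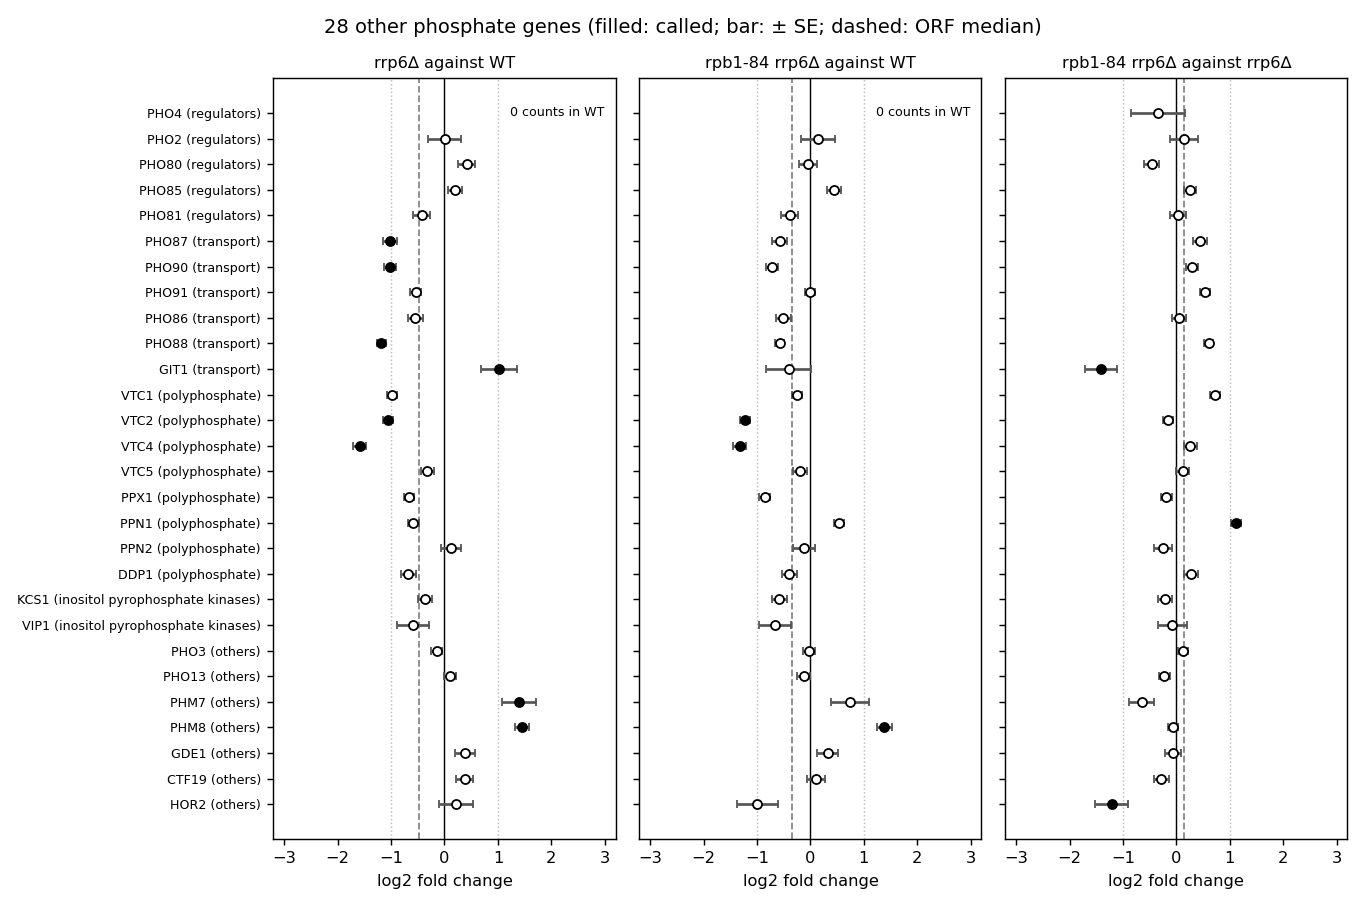
Log2 fold changes of the 28 other listed genes with a row, grouped by role, in the 3 comparisons of the *rrp6* experiment. Filled points were called, bars are ± SE and the dashed line is the ORF median; for *PHO4*, which had no count in WT, no value is drawn in the first 2 panels. In *rrp6∆* against WT the called transport genes *PHO87*, *PHO90* and *PHO88* and the VTC subunits *VTC2* and *VTC4* lie to the left, and *PHM7*, *PHM8* and *GIT1* to the right.

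Genes next to the phosphate genes on either side were also read. Of 17 neighbours, 12 were tested, and 1 was called lower in each comparison of the *rrp6* experiment. In *rrp6∆* against WT, the double mutant against WT and the double mutant against *rrp6∆*, 6.75%, 6.4% and 6.49% of features were called lower (11.5%, 9.21% and 1.95% of ORFs). No neighbour was called higher, where 32.2%, 28% and 1.96% of features were (4.17%, 4.25% and 2.11% of ORFs). *YCK1*, a casein kinase gene 343 bases from *SPL2*, was lower in *rrp6∆* against WT (-1.23, edgeR adjusted p = 3.02e-13), the opposite direction to *SPL2*, where the ORF median was -0.48. *DIG2*, 179 bases from *PHO8*, was lower in the double mutant against WT (-1.79, edgeR adjusted p = 0.000189) and against *rrp6∆* (edgeR adjusted p = 7.09e-06).

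The features whose log2 CPM over the 10 libraries went most closely with *PHO84* were *ERG12* (Pearson r = 0.942), *ECI1* (0.942), *PRP46* (0.941), *BOI1* (0.940) and *OCA2* (0.930), among 9078 features. In all 5 both *rpb1-84* libraries were the highest of the 10, as for *PHO84*. Because the 5 were chosen by likeness to *PHO84* over the same libraries, this shared peak is not a separate result. Of all features, 16.4% were called higher in *rpb1-84* against WT. Of the phosphate genes, *PHO5* came nearest (0.831, place 437), followed by *PHO8* (0.725), *VTC3* (0.526) and *SPL2* (-0.448). These correlations are descriptions over libraries that share strains, and *PHO84* itself is read at low counts.

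Among the 5 strains, *VTC3* had its highest level in *rpb4∆* (mean 49.2 ± 2.39 CPM, SD, n = 2), above both WT libraries, and *PHO84* (3.37 ± 0.211 CPM) also exceeded both. *PHO5* (6.45 ± 4.56 CPM) and *PHO8* (30.3 ± 8.09 CPM) overlapped with WT, *SPL2* had a single count and *PHO89* none. With another background and no WT of its own here, none of these was tested.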

How the data were processed

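Per the labels and the study's methods, the authors made QuantSeq 3′ tag libraries from total RNA, checked them with FastQC, clipped adapters (Fastx Clipper), aligned with Hisat2 to S288C R64 and obtained counts per feature with featureCounts. The deposited values are raw counts, used as they stand. Strand setting, feature boundaries and treatment of multiple matches are not given in the sources used here. A tag beyond the end of its feature would not be counted.

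Library totals ran from 1415496 to 7268211. Changes were fitted with edgeR 4.0.16 (TMM, filterByExpr, quasi-likelihood test) under R 4.3.3, over 6 libraries for the *rrp6* experiment and 8 with *rpb1-84*, and checked with DESeq2 1.42.0. The calls use the study's thresholds with Benjamini-Hochberg adjustment over all features. The fits were tested on simulated data in which only better counted features were changed, so this does not check calls at counts as low as those of *PHO84* and *SPL2*. Intervals on ratios of summed counts are exact binomial (95%), and with limits of 3 counts cover counting error only.

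The 9 genes and the list of 29 others were chosen with earlier results of these data known. All 9 are named. Others are named where called in the *rrp6* experiment, as are called neighbours and the 5 features closest to *PHO84*. Scaling, filter, tool, block, libraries in the fit and each library left out were varied.

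Sequences came from RefSeq (R64) with Python 3.11.15. *PHO11*, *PHO12* and *PHO92* were not analysed here.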

Additional observations from a re-analysis of the deposited data

Results flagged for a closer look

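For *PHO8*, the effect of *rrp6∆* differed between the *rpb1-84* and *RPB1* backgrounds by an interaction of -0.98 on the log2 scale (edgeR adjusted p = 9.51e-05), where 50.8% of features had an adjusted p below 0.1. It ran from -1.11 to -0.76 with each library left out. In the *rpb1-84* background both double mutant libraries (30.0 and 24.8 CPM) lay below both *rpb1-84* libraries (85.3 and 87.5 CPM), and in the *RPB1* background *rrp6∆* (21.5 and 20.6 CPM) lay below WT (34.2 and 38.5 CPM). The RPB4 tag of the *rpb1-84* strain cannot be told apart from this difference.

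The *rpb4∆* libraries entered no comparison, and 2 phosphate genes were higher there than in both WT libraries. *PHO84* had a mean of 3.37 CPM in *rpb4∆*, against 1.49 CPM in WT, on 5 and 4 counts in *rpb4∆* against 8 and 1 in WT. *VTC3* had a mean of 49.2 CPM in *rpb4∆*, against 31.6 CPM in WT. These differences were not tested, and background and strain cannot be told apart.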

How the results depend on the processing

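Of 446 recomputed log2 fold changes of single genes, 411 kept direction and call, 14 gained a call, 11 lost one and 10 reversed, each of the 10 on leaving out 1 library. The reversals, with their range over libraries left out, were *PHO84* (-1.94 to 0.78) and *PHO5* (-1.47 to 0.073) in *rrp6∆* against WT, *PHO84* (-0.55 to 2.17, with -0.07 without the second double mutant library) and *PHO5* (-0.94 to 0.60) in the double mutant against WT, *SPL2* in the double mutant against *rrp6∆* (-0.055 to 0.0074), and *SPL2* in *rpb1-84* against WT (-4.50 to 3.31, with 0.26 without the second *rpb1-84* library) and in the interaction (-3.32 to 4.49, with -0.28). The number of genes called lower in *rrp6∆* against WT was 0 with ORF scaling or total counts, 3 on adjusted p alone and 1 to 3 with a library left out. In the double mutant against WT it was 2 without the filter, with DESeq2 and on adjusted p alone. The number higher in the double mutant against *rrp6∆* was 0 with ORF scaling or total counts and 2 on adjusted p alone. It was also 0 with DESeq2 and with only the 4 libraries compared, but *PHO84* could not be called in either. DESeq2 gave it no adjusted p, and the fit of the 4 libraries held no value for it. The number lower was 0 to 1 in *rpb1-84* against WT and 0 to 2 in the interaction with a library left out, and 1 in the interaction on adjusted p alone. Scaling from ORFs only moved the median log2 fold change of all features in *rrp6∆* against WT to 0.47 and gave 3583 features higher and 76 lower in *rrp6∆* against WT (2960 and 621 otherwise), 3034 and 185 in the double mutant against WT (2573 and 589), 104 and 853 against *rrp6∆* (180 and 597), 3762 and 741 against *rpb1-84* (2978 and 1729), and 1205 and 1706 in *rpb1-84* against WT (1521 and 1458). With the replicate block, 1 gene was called higher and 1 lower in *rrp6∆* against WT, as without it, and no other count of genes changed. Deviations of same-numbered samples correlated at -0.02 to 0.04 over 6 pairs of strains, so the numbers do not pair the samples. Counts of 0 to 3 limit *PHM6*, *PHO89* and *SPL2* in WT. Where a cause is not named it was not tested.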
